A study of Mus musculus with 10 samples.

Results

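The epidermal growth factor (EGF) receptor family genes were described in the ileum, the distal small intestine, of iPGC-1β mice and of wild-type mice. The members were taken by symbol, as every probe of the deposited array table named Egfr, Erbb2, Erbb3, Areg, Ereg, Hbegf, Btc, Tgfa, Egf or Errfi1. This gave 12 of the 25697 probes, for 8 of the 10 genes; Erbb2 and Erbb3 were not analysed here. Total RNA was measured on 1 Illumina array for each of 5 iPGC-1β and 5 wild-type mice, which the series calls littermates. The strain was FVB/N and the age 3 to 4 months in both groups, and the genotype is the only difference that the labels give. The name iPGC-1β is used for mice that overexpress the transcriptional coactivator PGC-1β in the intestinal epithelium; the labels do not name the promoter, the transgene or the number of founder lines. Each array measured a piece of whole ileum with all its cell types, so that fewer cells of a type and less RNA per cell cannot be told apart. The labels give no sex, litter or array slide. Each p-value therefore weighs the group difference only against the spread among these 10 samples. It cannot tell the genotype from differences in sex, litter or slide.

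The EGF receptor, encoded by Egfr, is a tyrosine kinase of the cell surface. Its ligands are made as membrane-bound precursors that metalloproteases cut loose, and a bound receptor signals through RAS and ERK kinases, PI3K and AKT, and STAT proteins. The pathway is known for driving proliferation in intestinal crypts and repair of the epithelium, and ERK signalling in turn raises several genes of the family itself, among them ligand genes and the receptor inhibitor gene Errfi1.

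A probe was read as above background on an array where its detection p-value was under 0.05. Between 12370 and 12771 probes per array met this. Probes above background on at least 5 of the 10 arrays were kept, and the brightest kept probe stood for a gene, which left 9365 genes, 5 of them members: Egfr, Areg, Hbegf, Btc and Errfi1. Ereg, Tgfa and Egf did not pass. Levels are log2 intensities after background correction and quantile normalization, and differences are iPGC-1β minus wild-type on that scale. Levels of different probes are not comparable with each other. Wild-type replicate 2 had the highest level of the wild-type arrays for Areg, Hbegf and Errfi1, so their values without it are given beside the results.

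Ileal EGF family transcripts were lower on the iPGC-1β arrays where they differed. The ligand gene Areg and the receptor gene Egfr fell, the latter on its brightest probe only, and none of the 5 tested members rose. Hbegf and Errfi1 had differences of more than 2-fold, with levels on the wild-type arrays so widely spread that neither passed the test, and the ligand gene Btc lay close to 0. Of all 9365 tested genes, 7.41% were called lower and 9.88% higher at limma's adjusted p under 0.05, against which stand the 2 of 5 members called lower and the 0 called higher. The median difference of the 5 tested members was -1.13, the value of Errfi1, which was not called, beside -0.05 for all tested genes. It was -0.72 without wild-type replicate 2, and -0.39 when the mean level of absorptive enterocyte markers was added to the fit as a covariate.

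**Figure D1:**
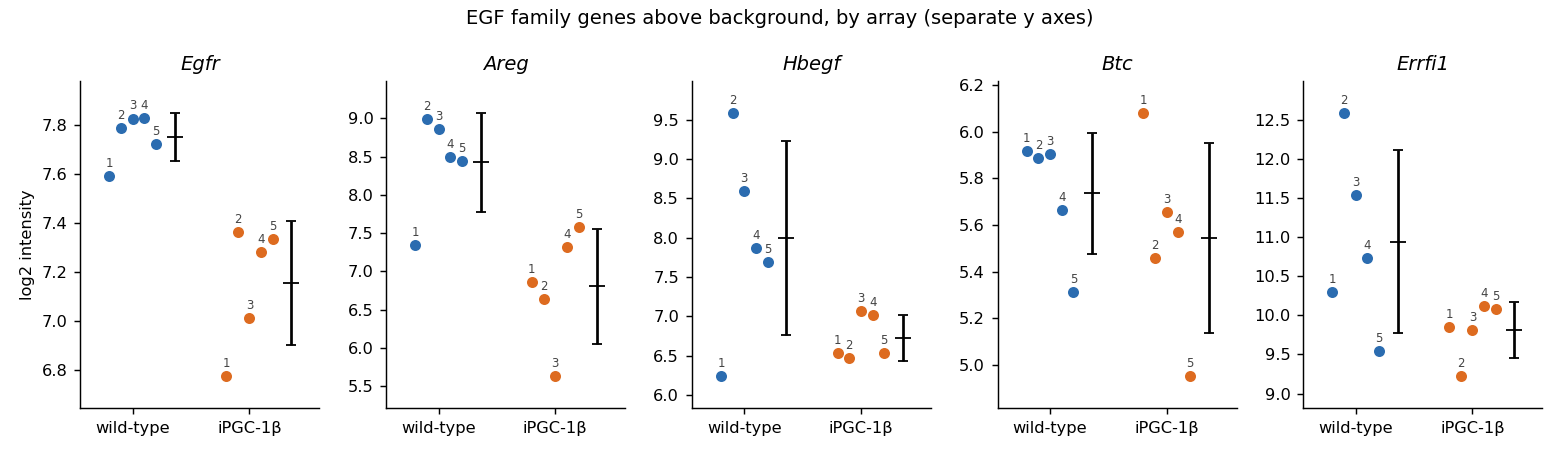
Log2 intensity of the 5 members above background (y axes differ), one point for each array with its replicate number, and the mean ± SD (n = 5 per group) as a black bar. The groups do not overlap for Egfr; for Areg, wild-type replicate 1 at 7.34 lies among the iPGC-1β arrays; for Hbegf and Errfi1 the wild-type arrays span 3.35 and 3.04 log2 units.

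Egfr was read by 4 probes. On the brightest, the wild-type arrays read 7.59, 7.79, 7.83, 7.83 and 7.72 (replicates 1 to 5), and the iPGC-1β arrays read 6.77, 7.36, 7.01, 7.28 and 7.33. Every iPGC-1β array lay below every wild-type array, as it did for 5.62% of all tested genes. The means were 7.75 ± 0.10 and 7.15 ± 0.25 (SD, n = 5 each), a fall of 1.52-fold, or -0.60 ± 0.14 (SE) on the log2 scale with a 95% interval from -0.90 to -0.30. Limma's adjusted p was 0.0108, and the two-sided exact permutation p was 0.00794, the smallest that 5 against 5 arrays allow.

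The other Egfr probes did not show that fall. The next brightest read between 5.94 and 6.45 on the wild-type and between 5.76 and 6.24 on the iPGC-1β arrays, a difference of -0.20 with a 95% interval from -0.51 to 0.11 (limma's adjusted p = 0.372 over all kept probes). The third read between 5.67 and 6.24 against between 5.62 and 6.43, a difference of -0.09 with an interval from -0.47 to 0.30 (limma's adjusted p = 0.782). Both were above background on all 10 arrays, while the fourth was above it on 1 array and was not tested. Within arrays, the first probe minus the second was different by -0.40 on the iPGC-1β arrays and the first minus the third by -0.51, with two-sided exact permutation p-values of 0.0714 and 0.0794, both 0.0794 adjusted over 4 such tests. Without background correction the same contrasts fell by 0.29 and 0.34, with exact permutation p-values of 0.00794 and 0.0238, adjusted 0.0317 and 0.0476. The inequality between the first probe and the others was therefore called only on the values without background correction. Those values keep the background signal, which shrinks log2 differences more on dim probes. The wild-type medians of the unnormalized signal were 322.9 for the first probe, 182.8 for the second and 164.3 for the third. An equal fall would thus also give unequal differences there, so that call cannot show an unequal fall. The main values hold an added offset of 16, which also shrinks log2 differences more on dim probes. Mouse Egfr is known to give a truncated receptor transcript besides the full one; the transcripts that each probe reads are not stated in the files or labels.

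**Figure D2:**
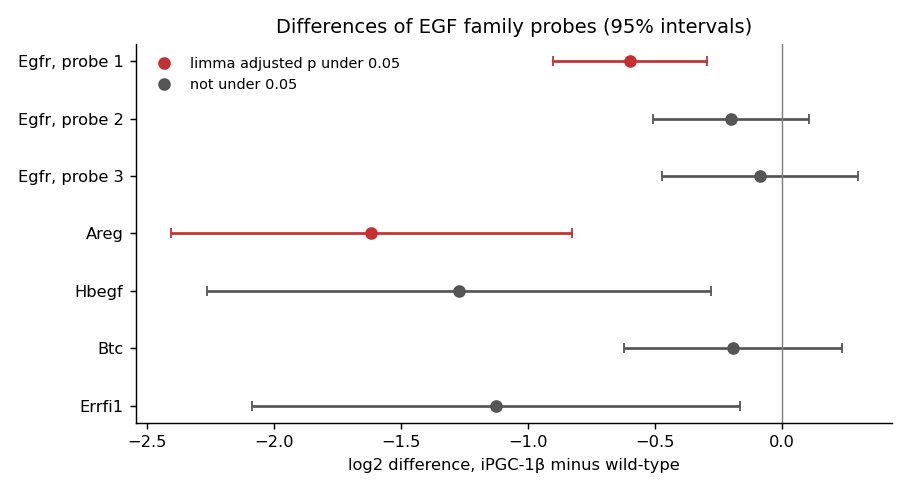
Log2 difference, iPGC-1β minus wild-type, of the 7 kept probes of the members with 95% intervals from limma (n = 5 per group). Areg and the first Egfr probe, in red, had an adjusted p under 0.05; the intervals of the other Egfr probes and of Btc include 0.

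Areg encodes amphiregulin, a ligand of the EGF receptor. Its wild-type arrays read 7.34, 8.98, 8.86, 8.49 and 8.45 (replicates 1 to 5) and its iPGC-1β arrays 6.86, 6.64, 5.63, 7.32 and 7.58. Wild-type replicates 2 to 5 lay above all iPGC-1β arrays, and wild-type replicate 1 lay between iPGC-1β replicates 4 and 5. The means were 8.42 ± 0.65 and 6.81 ± 0.75 (SD, n = 5 each), a fall of 3.07-fold, or -1.62 ± 0.37 (SE) with a 95% interval from -2.41 to -0.83 (limma's adjusted p = 0.00881, two-sided exact permutation p = 0.0159). Areg kept its call without any 1 array, with differences between -1.89 and -1.32. Without wild-type replicate 2 it lay at -1.47 (limma's adjusted p = 0.0253), and without iPGC-1β replicate 3, the lowest array, at -1.32 (0.0143). Without both wild-type replicates 2 and 3, which were left out together because of their values, the differences of Areg and Egfr were -1.28 and -0.56 and both calls were lost (limma's adjusted p = 0.0810 and 0.0746).

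Hbegf encodes heparin-binding EGF-like growth factor, which binds the EGF receptor and ERBB4. The wild-type arrays read 6.24, 9.59, 8.60, 7.87 and 7.69 (replicates 1 to 5), and the iPGC-1β arrays 6.54, 6.47, 7.07, 7.01 and 6.54. Wild-type replicates 2 to 5 lay above all iPGC-1β arrays, but wild-type replicate 1 was the lowest array of all. The means were 8.00 ± 1.24 and 6.72 ± 0.29 (SD, n = 5 each), a difference of -1.27 ± 0.46 (SE) with a 95% interval from -2.26 to -0.28, which did not pass the test (limma's adjusted p = 0.0758, two-sided exact permutation p = 0.0556). The call hung on wild-type replicate 1: without it the difference was -1.71 and was called (limma's adjusted p = 0.00544). Without wild-type replicate 2 the difference shrank to -0.87 and was still not called (limma's adjusted p = 0.147).

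Btc encodes betacellulin, a further ligand of the receptor. It lay near the background, with 5.92, 5.89, 5.91, 5.66 and 5.31 on the wild-type arrays (replicates 1 to 5) and 6.08, 5.46, 5.66, 5.57 and 4.95 on the iPGC-1β arrays, the last of these not above background. The groups overlapped over nearly their whole range. The difference was -0.19 ± 0.20 (SE) with a 95% interval from -0.62 to 0.24 (limma's adjusted p = 0.550), so a change of up to 1.54-fold in the lower direction lies within its interval.

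Errfi1, also known as Mig6, encodes a cytosolic protein that binds the kinase domain of the EGF receptor and inhibits it. The wild-type arrays read 10.30, 12.59, 11.54, 10.74 and 9.55 (replicates 1 to 5), the iPGC-1β arrays 9.85, 9.22, 9.81, 10.12 and 10.08. Wild-type replicates 1 to 4 lay above every iPGC-1β array, and wild-type replicate 5 lay below all of them but replicate 2. The means were 10.94 ± 1.17 and 9.82 ± 0.36 (SD, n = 5 each), a difference of -1.13 ± 0.44 (SE) with a 95% interval from -2.09 to -0.17, not called (limma's adjusted p = 0.102, two-sided exact permutation p = 0.0794). Without wild-type replicate 5 it was -1.47 and called (limma's adjusted p = 0.0192), and without wild-type replicate 2 it was -0.72 (0.183).

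The other ligand genes were not measured above background. Epiregulin, from Ereg, has 2 probes, of which 1 was above background on 0 arrays and the other on 1, wild-type replicate 2, at an unnormalized intensity of 162.8. Tgfa, the gene of transforming growth factor alpha, was above background on 1 array, iPGC-1β replicate 1, and Egf on 0 arrays. Their unnormalized intensities lay between 98.8 and 162.8 in all, beside array medians between 127.7 and 155.1 over all probes. No difference is given for these 3 genes, and a level under the background of these probes is not an absence of the transcript.

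**Figure D3:**
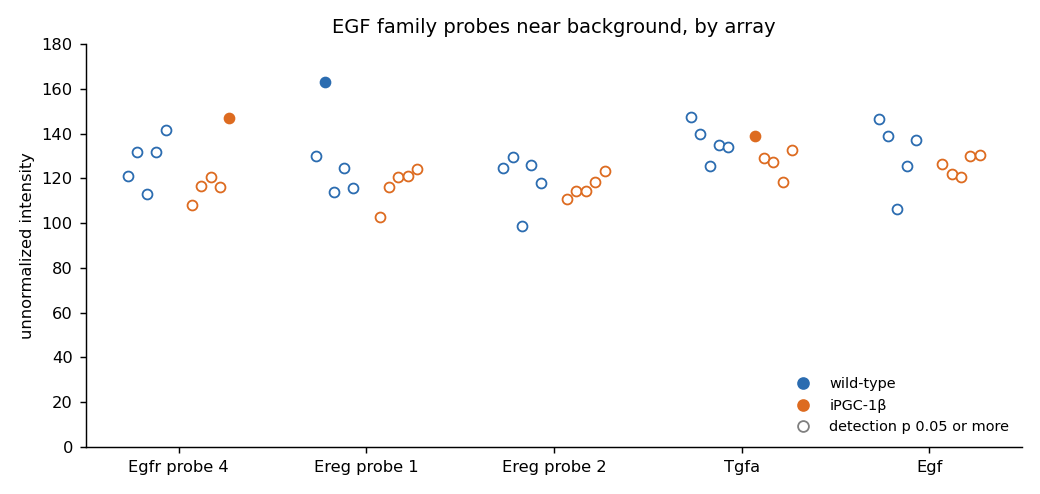
Unnormalized intensity of the member probes that did not pass the filter, one point for each array (5 per group); filled points have a detection p under 0.05. Filled are 1 array each for the fourth Egfr probe, one Ereg probe and Tgfa.

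The promoters of the called members, Areg and Egfr, are shown with that of Errfi1. Areg, Errfi1 and Hbegf had their highest level on wild-type replicate 2; the promoter of Hbegf is not shown here, so the windows cover 2 of these 3 genes. Each is the stretch from 250 bases before to 50 after an annotated transcript start, on the + strand, from RefSeq on GRCm38.p6. Areg lies at chr5:91139349-91139648, the downstream of 2 annotated Errfi1 starts at chr4:150854820-150855119, and Egfr at chr11:16751953-16752252. Capitals mark the TATA motif TATAAA, the full cyclic AMP response element (CRE) TGACGTCA and its core TGACG, on either strand; each full element contains the core on both strands.
Areg: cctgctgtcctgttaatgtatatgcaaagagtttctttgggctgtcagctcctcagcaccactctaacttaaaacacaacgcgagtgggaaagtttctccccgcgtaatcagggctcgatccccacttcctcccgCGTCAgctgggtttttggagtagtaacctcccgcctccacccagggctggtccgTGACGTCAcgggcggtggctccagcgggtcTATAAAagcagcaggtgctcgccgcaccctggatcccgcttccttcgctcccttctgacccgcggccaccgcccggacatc
Errfi1: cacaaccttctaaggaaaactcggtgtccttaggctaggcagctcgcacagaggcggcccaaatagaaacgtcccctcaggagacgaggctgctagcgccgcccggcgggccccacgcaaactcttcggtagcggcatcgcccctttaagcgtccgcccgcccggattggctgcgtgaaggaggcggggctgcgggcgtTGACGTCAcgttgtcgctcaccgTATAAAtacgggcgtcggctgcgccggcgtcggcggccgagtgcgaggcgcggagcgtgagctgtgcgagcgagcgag
Egfr: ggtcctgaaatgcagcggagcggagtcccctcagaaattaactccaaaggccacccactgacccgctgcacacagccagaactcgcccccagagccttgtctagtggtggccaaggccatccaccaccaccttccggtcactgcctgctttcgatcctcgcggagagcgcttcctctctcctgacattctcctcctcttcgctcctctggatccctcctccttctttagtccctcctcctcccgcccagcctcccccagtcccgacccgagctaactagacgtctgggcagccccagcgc
Areg held the full element from base -61 and the TATA motif from base -31, counted from the transcript start. Errfi1 held them from bases -51 and -28 in the downstream window shown. The upstream Errfi1 window held neither of them, nor the core. Of 32841 mouse promoter windows of this length, 1.79% held the full element and 13.6% the TATA motif. Egfr held neither, nor the core, which 20.8% of the windows held. The AP-1 motif TGANTCA, the serum response element and the ERR element TNAAGGTCA, present in 7.81%, 1.63% and 1.28% of windows, were in none of these 3 windows, nor in the upstream Errfi1 one. The GC box GGGCGG, present in 35.7% of windows, was in all 3. Of the windows of Erbb2, Btc, Tgfa and Egf, those of Erbb2 and Btc held a core, and none held the full element. No window of Hbegf, Ereg or Erbb3 was among those examined, so the presence of these motifs in them was not tested. A match is a run of letters and not a measured binding site.

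Genes that answer to ERK signalling were looked at on the same arrays. Of 22 such genes 13 were tested; 3 were called lower and 0 higher, beside the 7.41% and 9.88% of all tested genes. The called genes were Dusp6, which encodes a phosphatase that restrains ERK kinases (-1.54 ± 0.25 SE, limma's adjusted p = 0.00118), Phlda1 (-1.82 ± 0.49, 0.0231) and Plaur, the urokinase receptor gene (-0.99 ± 0.31, 0.0438), which was above background on 3 of the 5 iPGC-1β arrays. The median difference of the 13 was -0.75, beside -0.05 for all tested genes. The list was chosen with results of these data known, which already held Dusp6 and Phlda1. Its mean level lay between 8.11 and 9.54 on the wild-type arrays, highest on replicate 2 and next at 8.93, and between 7.67 and 8.14 on the iPGC-1β arrays. Spry2, a feedback inhibitor gene, was not above background on any array. The number called was 1 without wild-type replicate 3, iPGC-1β replicate 1 or iPGC-1β replicate 3, and 5 without wild-type replicate 1 or 5.

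The immediate early genes Egr1 and Fos were likewise widely spread over the wild-type arrays. Egr1 read 9.23, 13.35, 11.16, 11.37 and 9.75 on wild-type replicates 1 to 5 and between 8.70 and 10.20 on the iPGC-1β arrays, a difference of -1.86 ± 0.62 (SE) that was not called (limma's adjusted p = 0.0558). Fos read 9.11, 11.65, 11.35, 11.06 and 9.73 on the wild-type and between 8.89 and 10.65 on the iPGC-1β arrays (-0.75, limma's adjusted p = 0.314). In both genes, as in Hbegf, wild-type replicate 2 was the highest array of its group and replicate 1 the lowest.

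**Figure D4:**
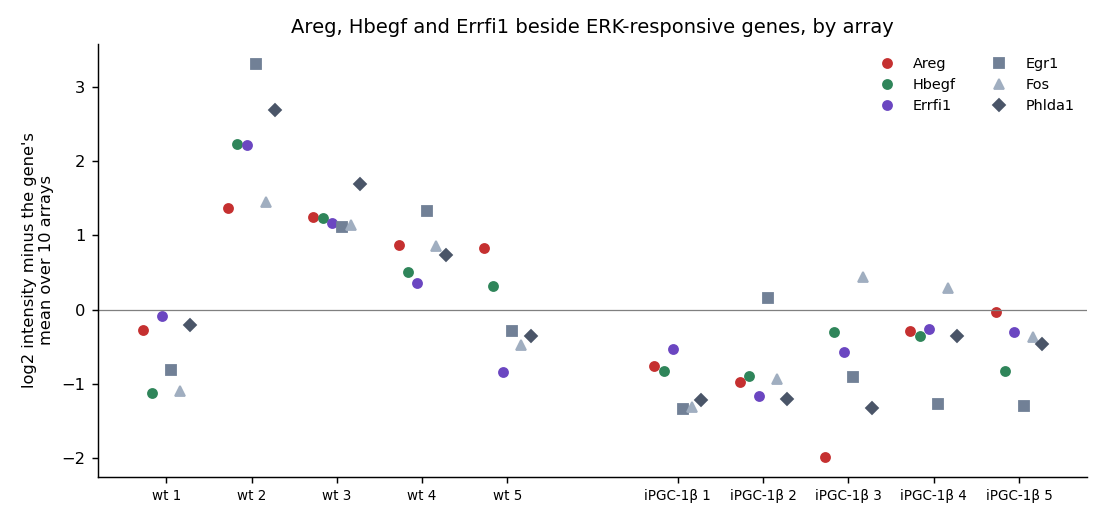
Log2 intensity of 3 members (circles) and of Egr1, Fos and Phlda1, each minus its own mean over the 10 arrays; the x axis lists the arrays by replicate number, which has no order. All 6 genes lie highest on wild-type replicate 2.

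Around the receptor, 5 further lists of genes held 65 tested genes, of which 10 were called lower and 1 higher, beside 7.41% lower and 9.88% higher over all tested genes. The 10 include Cblb, which was above background on 5 wild-type and 0 iPGC-1β arrays and is given only as a description below. Among the other ErbB genes, the neuregulin genes Nrg1 and Nrg4 were tested and neither was called. Of 12 tested genes of ligand shedding and trafficking 3 fell: Furin, a convertase that activates metalloproteases (-0.49 ± 0.13 SE, limma's adjusted p = 0.0236), Adam9, a metalloprotease (-0.43, 0.0429), and Rhbdf1, which encodes the partner iRhom1 of ADAM17 (-0.74, 0.0497). Adam17 itself, the main protease for amphiregulin, lay at 0.08 (limma's adjusted p = 0.714). Without wild-type replicate 2 or 3 none of the shedding genes was called, and without wild-type replicate 1 or iPGC-1β replicate 3, 4 or 5 there was 1.

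Of 18 tested genes of receptor turnover and inhibition 3 were called lower and 0 higher, beside 7.41% and 9.88% of all tested genes. Measured in both groups were the ubiquitin ligase gene Cblc (-0.50 ± 0.13 SE) and Ptpn1, which encodes a phosphatase of receptor kinases (-0.62 ± 0.14), with limma's adjusted p = 0.0179 and 0.00868. The third, the ubiquitin ligase gene Cblb, was above background on 5 wild-type and 0 iPGC-1β arrays, so it passed the filter only through the group where it was high, and its call (limma's adjusted p = 0.00378) is given only as a description. On the background-corrected scale, and against the lowest signal above background on each iPGC-1β array, it was at least 1.40-fold lower. Without background correction its log2 difference was -0.21, and -0.22 with the authors' values, and the bound holds only on the corrected scale. With probes kept only at a detection p under 0.01 on all 10 arrays, Cblb was left out and the number was 2. Lrig1, an EGF receptor inhibitor gene known from crypt stem cells, lay at -0.31 and was not called (limma's adjusted p = 0.173). Without iPGC-1β replicate 2 the number called lower was 5, Cblb among them.

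Inside the cell, 1 of 16 tested adaptor and RAS-RAF-MEK-ERK genes fell and 1 rose, close to the 7.41% and 9.88% of all tested genes. Nras, a RAS gene, lay at -0.61 ± 0.14 (SE) and Araf, a RAF kinase gene, at 0.58 ± 0.14, with limma's adjusted p = 0.0110 and 0.0107. Araf was not called at a minimum of 1.5-fold, with the enterocyte covariate or without wild-type replicates 2 and 3. The ERK kinase gene Mapk3 lay at -0.23 and was not called (limma's adjusted p = 0.173). Of 17 tested genes of the PI3K-AKT, phospholipase and STAT branches 3 fell and 0 rose: Stat3 (-0.87 ± 0.15, limma's adjusted p = 0.00168), Plcg2 (-0.92 ± 0.21, 0.00942) and the kinase gene Src (-0.67 ± 0.18, 0.0236). The adaptor gene Crk of this list lay at 0.34 and was not called (limma's adjusted p = 0.0704), but was called higher under 6 alternatives. The list medians were -0.06 for shedding, -0.14 for turnover, -0.10 for the adaptors and -0.21 for the last list, beside -0.05 for all tested genes.

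**Figure D5:**
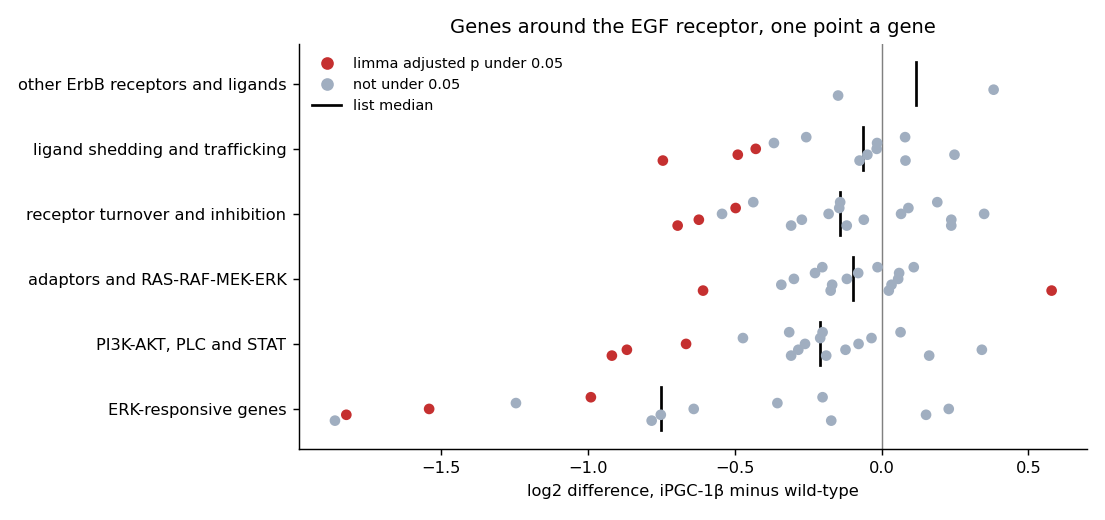
Log2 difference, iPGC-1β minus wild-type, of each tested gene in 6 lists around the receptor; red points had limma's adjusted p under 0.05 and black lines are list medians. The ERK-responsive list has the lowest median, -0.75; the only red point above 0 is Araf.

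Some cell type markers were called as well, with more in the absorptive enterocyte list than in any other. Of 14 tested markers of absorptive enterocytes 6 were called lower and 0 higher, beside 7.41% and 9.88% of all tested genes, and their mean level lay between 11.77 and 12.42 on the wild-type and between 11.36 and 11.82 on the iPGC-1β arrays. Among the 6, Slc15a1 was above background on at most 7 of the 10 arrays, with an iPGC-1β mean of 4.98. Fabp6, an ileal bile acid binding protein gene, was above background on all 10 arrays, while the probes of Slc10a2, Fabp1 and Fabp2 were above it on 0 arrays. With the enterocyte mean as a covariate Areg lay at -1.54 and Egfr at -0.51, and neither was called (limma's adjusted p = 0.154 and 0.194). With it Hbegf lay at -0.39 and Errfi1 at 0.45. That mean differs between the groups itself, so the fit cannot fully separate it from the genotype. Without the covariate Areg, Egfr, Hbegf and Errfi1 lay at -1.62, -0.60, -1.27 and -1.13. Why the calls of Areg and Egfr were lost with it was not tested. Of 10 tested crypt stem and progenitor markers 1, the Wnt target gene Axin2, was called lower (-0.71), which is close to the share over all tested genes. Of 6 tested T cell markers 0 were called, with a median of -0.71 and mean levels between 7.47 and 8.43 against between 5.46 and 7.77. The 5.46 is iPGC-1β replicate 3, and the other iPGC-1β arrays lay between 7.33 and 7.77; the list's mean difference was -0.68 with that array and -0.25 without it. That array was also the lowest of its group for the means of the Paneth, goblet, B cell and macrophage markers, among others. The tested markers of Paneth cells (7), smooth muscle (9), macrophages (8), B cells (3) and enteric neurons and glia (2) gave 0 calls. The goblet cell gene Spdef (of 7 tested), the enteroendocrine genes Sct and Gip (of 9) and the fibroblast gene Fbln1 (of 8) were called lower. The endothelial gene Emcn (of 6) was called higher. These were the only calls of their lists. The part of these cells in the results on the family was not tested otherwise.

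Genes most like the called members over the 10 arrays, after the group means were subtracted, are given as a description. For Egfr these included Med24 (Pearson's r = 0.96) and Zdhhc12 (0.94), and without wild-type replicate 2 the values were 0.96 and 0.94. For Areg they were Tchp (0.95), Fcna (0.91) and Bcl3 (0.88), and without that array 0.95, 0.94 and 0.89. The arrays share all processing steps, and these genes were picked for this value among all tested genes.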

How the data were processed

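The deposited table gives, per the file headers, the average signal of each probe, an intensity on a linear scale that was not normalized, and its detection p-value on every array. GenomeStudio is named without a version in the submitters' processing notes. The authors' deposited processed values of the same arrays, also intensities, served as an alternative; how they were made is not stated.

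Columns were matched to samples by title or accession, with 0 columns of sample values left unused. Replicate numbers only name arrays. Intensities were corrected by normexp, with background inferred from the detection p-values and an offset of 16, then quantile-normalized and log2-transformed (neqc, limma 3.58.1, R 4.3.3). Probes with a detection p under 0.05 on at least 5 of 10 arrays were kept. The groups were compared by limma (lmFit, eBayes, no covariates) over 9365 genes with Benjamini-Hochberg adjustment. Exact permutation tests used all 252 relabelings. The fit was checked on simulated data. The number of arrays limits the precision.

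Named are all probes of the members and the called genes of 6 pathway lists (Adam17, Mapk3, Lrig1, Crk, Nrg1, Nrg4, Egr1, Fos and the marker genes were picked afterwards; a gene that the likeness rule also names is not reported here). The members, the lists and the tests were chosen with earlier results of these data known. Symbols are the array's, matched to the lists directly or through a synonym of 1 gene in the RefSeq table of GRCm38.p6, which also gave the promoters.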

Additional observations from a re-analysis of the deposited data

How the results depend on the processing

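Areg and the brightest Egfr probe kept their calls under 22 of 24 alternatives each. Among these, an adjusted p under 0.10 could not remove a call, and a minimum of 1.5-fold used the main fit again. The differences ran from -1.89 to -1.02 for Areg and from -0.65 to -0.37 for that Egfr probe, the smallest without background correction or with the authors' processed values. These counts do not cover the other kept Egfr probes, which lay at -0.20 and -0.09 and were not called. The number of members called lower was 2, lay between 2 and 3 when any 1 array was left out, and was 0 with the enterocyte covariate and 0 without wild-type replicates 2 and 3, an alternative added after the data were seen; the first adds a term and the second removes arrays, and the cause was not otherwise tested. The number called higher was 0 throughout. The difference of Errfi1 reversed to 0.45 with the enterocyte covariate (limma's adjusted p = 0.657), the cause of which was not tested; Hbegf and Errfi1 kept their direction under the other alternatives. Btc lay between -0.36 and -0.02 and was left out by the filter at a detection p under 0.01 on all 10 arrays. Over all genes, 694 were called lower, against 421 to 792 with any 1 array left out, 1077 at an adjusted p under 0.10, 1105 with array weights, 428 with the enterocyte covariate and 204 without wild-type replicates 2 and 3; 925 were called higher, against 570 and 596 in the last 2 of these. The ERK-responsive list had 3 genes called lower, and 5 under median centring or array weights, 7 at an adjusted p under 0.10, 1 without the filter or without those 2 arrays and 0 with the covariate. The other lists had 3 (shedding), 3 (turnover, Cblb among them), 1 (adaptors) and 3 (PI3K-AKT) genes called lower. With the covariate these were 0, 1, 0 and 1. Without wild-type replicates 2 and 3 the first 3 of them were 0, while shedding had 1 under median centring or a minimum of 1.5-fold. Called higher were 1 adaptor gene, Araf, and 0 of the PI3K-AKT list, in which Crk was called under 6 alternatives (log2 difference from 0.32 to 0.34): no background correction, the authors' values, detection p under 0.01, an adjusted p under 0.10, trend and robust variance, and array weights. Turnover had 1 gene called higher without wild-type replicate 1 or 4. This was Usp8, at 1.14 and 1.12, beside 0.35 in the main fit. The probe that stands for a gene was chosen anew in each setting, so these values need not come from the same probe. Of 288 list counts under the alternatives 247 stayed within 1.5 times. Probes of Ereg, Tgfa and Egf lay at background, which limits what these arrays can show of them. No paired analysis was possible because the labels give no number that pairs the arrays of the 2 groups.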
